A study of Mus musculus with 8 samples.

Results

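The tenascin, lectican and link protein genes form the main scaffold of the extracellular matrix of the brain. They are described here in the cerebellum of mice in which astrocytes were made to express a calcium pump. The genes are the tenascins Tnc and Tnr, the lecticans Ncan, Bcan, Vcan and Acan, and the link proteins Hapln1, Hapln2, Hapln3 and Hapln4. They were found by matching these 10 names to the gene symbols of the deposited count table. All 10 are among its 24060 rows, and 9 passed the filter on low counts, Hapln3 being the exception. The family was chosen by bigenic-against-control values already known, Tnc having been among the lower genes, so its differences between these groups are given as a description.

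Whole cerebellum from 8 mice was sequenced as bulk RNA, 1 library per mouse. The 4 bigenic mice carried CalExflox together with Aldh1l1-Cre/ERT2, a tamoxifen-dependent Cre driven from an astrocyte gene, and the 4 control mice carried CalExflox alone. The CalEx pump, a calcium ATPase of the plasma membrane, moves calcium out of the cell. Mice of both groups received 1 dose of tamoxifen at 75 mg/kg, and tissue was taken 5 days later. Cre was present in the bigenic mice only, so the pump and the recombinase cannot be told apart. In bulk tissue, fewer cells of a type and less RNA per cell cannot be told apart either.

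In this matrix, long hyaluronan chains are anchored at the cell surface, lecticans bind along them through their N-terminal domain, and link proteins clamp that bond. Lecticans are chondroitin sulfate proteoglycans, and their C-terminal domain binds tenascins. Tenascin R is a trimer and tenascin C a hexamer, so either can hold several lecticans together. Around some neurons these molecules condense into perineuronal nets, which in the cerebellum are best known around the large neurons of the deep nuclei. Tenascin C is made by radial and Bergmann glia, is abundant during development and is known to return after injury.

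Depth and tissue markers set the frame for these values. Counted reads ranged from 35208460 to 38293012 per library. The 12 granule neuron markers summed to between 6191 and 8347 CPM (counts scaled to a common library total) and the 15 Purkinje neuron markers to between 13967 and 17720 CPM, and none was at 0 in any library. Choroid plexus markers differed with the group. Their 15 genes summed to between 166 and 235 CPM in bigenic libraries and between 297 and 4925 CPM in controls, with 12 of 13 tested lower. Only Kcne2 (in control library 4) and Sostdc1 (in bigenic libraries 1 and 4) were at 0. Most of that signal was in control libraries 2 and 3, with Ttr at 2360 and 2961 CPM against 300.2 CPM in control library 1 and 2.25 to 4.62 CPM elsewhere. Control library 4 held 110.4 CPM of Slc17a6, a glutamate transporter of brainstem and cerebellar nuclei neurons, against 10.2 to 21.8 CPM in the other 7 libraries. Of the 15186 genes tested, 44.3% differed between the groups at an adjusted p under 0.05 (edgeR quasi-likelihood test, Benjamini-Hochberg), 21.4% higher and 22.9% lower in bigenic tissue. The split between both directions depended on scaling, with 3249 higher and 3485 lower here and 2423 higher and 4373 lower when libraries were scaled by their totals alone.

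Tnc lies on chromosome 4 (GRCm38, 63959785 to 64047015, minus strand), and its exons overlap those of 8030451A03Rik on the opposite strand. Tnr lies on chromosome 1 (159523769 to 159931729, plus strand), and its exons overlap Gm38039 on the opposite strand. Whether the counting used strand is not given in the sources used here, so these overlaps could affect the counts of Tnc and Tnr. The start regions of both genes are shown because the groups differed so unequally in both tenascins. Each window spans 250 bases before and 50 after a RefSeq start site (GRCm38.p6), 5′ to 3′ on the gene's own strand. Capitals mark motif matches. The Tnc window is chr4:64046887-64047186, around the more downstream of 2 RefSeq start sites that lie 79 bases apart, and the Tnr window is chr1:159523519-159523818.
Tnc: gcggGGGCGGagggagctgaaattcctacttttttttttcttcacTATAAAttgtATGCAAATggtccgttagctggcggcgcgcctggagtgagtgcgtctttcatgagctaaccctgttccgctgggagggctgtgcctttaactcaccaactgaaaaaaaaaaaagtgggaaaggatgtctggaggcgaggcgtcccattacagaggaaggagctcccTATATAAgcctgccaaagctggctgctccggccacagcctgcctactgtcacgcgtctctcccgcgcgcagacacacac
Tnr: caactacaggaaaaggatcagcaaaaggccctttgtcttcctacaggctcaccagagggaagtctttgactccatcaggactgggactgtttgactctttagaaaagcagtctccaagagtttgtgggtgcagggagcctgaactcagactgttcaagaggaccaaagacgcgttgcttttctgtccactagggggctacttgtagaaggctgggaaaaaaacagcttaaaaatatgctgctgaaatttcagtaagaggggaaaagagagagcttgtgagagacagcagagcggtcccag

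Both strands were searched for 8 motifs, none of which overlapped another in these windows. The Tnc window held the motif TATATAA, present in 3.24% of 32851 RefSeq start windows of the same length, with its first base 29 bases before the start site. The window around the upstream start site, which is the GENCODE gene start, did not hold this motif and held the next 3. The printed window also held TATAAA (13.6% of windows), the octamer ATGCAAAT (1.74%) and the GC box GGGCGG (35.7%). The Tnr window held none of these. Neither window held the CCAAT box (letters CCAAT, 37.4% of windows), the AP-1 motif (letters TGACTCA, 5.20%), the E-box (letters CACGTG, 7.15%) or the glucocorticoid receptor motif (letters AGAACA, 19.0%). A start window was found for 9 of the 10 genes. The matches describe letters in these windows and were not tested against the expression values.

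Tnc, which encodes tenascin C, was far lower in bigenic cerebellum. Bigenic libraries 1 to 4 held 7.56, 14.6, 9.96 and 8.46 CPM, from 265, 541, 333 and 304 counted reads. Controls 1 to 4 held 67.7, 70.8, 70.1 and 55.9 CPM, from 2519, 2760, 2529 and 2244 reads. The means were 10.2 ± 3.15 and 66.1 ± 6.94 CPM (SD, n = 4). The groups did not overlap, and the lowest control library, library 4, was well above the highest bigenic library, library 2. The log2 fold change, bigenic relative to control, was -2.70 ± 0.18 (SE), a level 6.50-fold lower with a 95% confidence interval of -3.10 to -2.30 on the log2 scale. Because this value drew attention to the family, no p is given for it. For the same reason its interval and its call among the members are a description and not support.

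The Tnc difference kept its direction in every fit tried. It ranged from -3.01 to -2.16 on the log2 scale over 19 alternatives. All of them drew on the same mice, so they are not independent support. The value of -2.16 came from the fits on log2(FPKM + 1), and log2(FPKM + 0.1) gave -2.74. Without control libraries 2 and 3, which held most of the choroid plexus transcripts, it was -2.61, and with the Ttr level as a covariate it was -2.50. The part of choroid plexus transcripts in the Tnc difference was not tested. Without bigenic library 2 the value was -2.93.

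Glial markers moved in both directions beside Tnc. The 15 astrocyte markers summed to between 13374 and 14992 CPM in bigenic and between 10670 and 11142 CPM in control libraries, with 9 genes higher and 1 lower. The 15 Bergmann glia markers summed to between 6035 and 6829 CPM in bigenic and between 5486 and 6340 CPM in control libraries, with 3 higher and 5 lower and none at 0. Fabp7, a fatty acid binding protein of radial and Bergmann glia, was at 7.70 to 17.8 CPM in bigenic and 47.9 to 70.4 CPM in control libraries. Gdf10, a secreted factor of Bergmann glia, went the other way, at 162 to 223 CPM in bigenic and 89.1 to 117 CPM in control libraries. The part of these cell type markers in the Tnc difference was not tested.

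**Figure D1:**
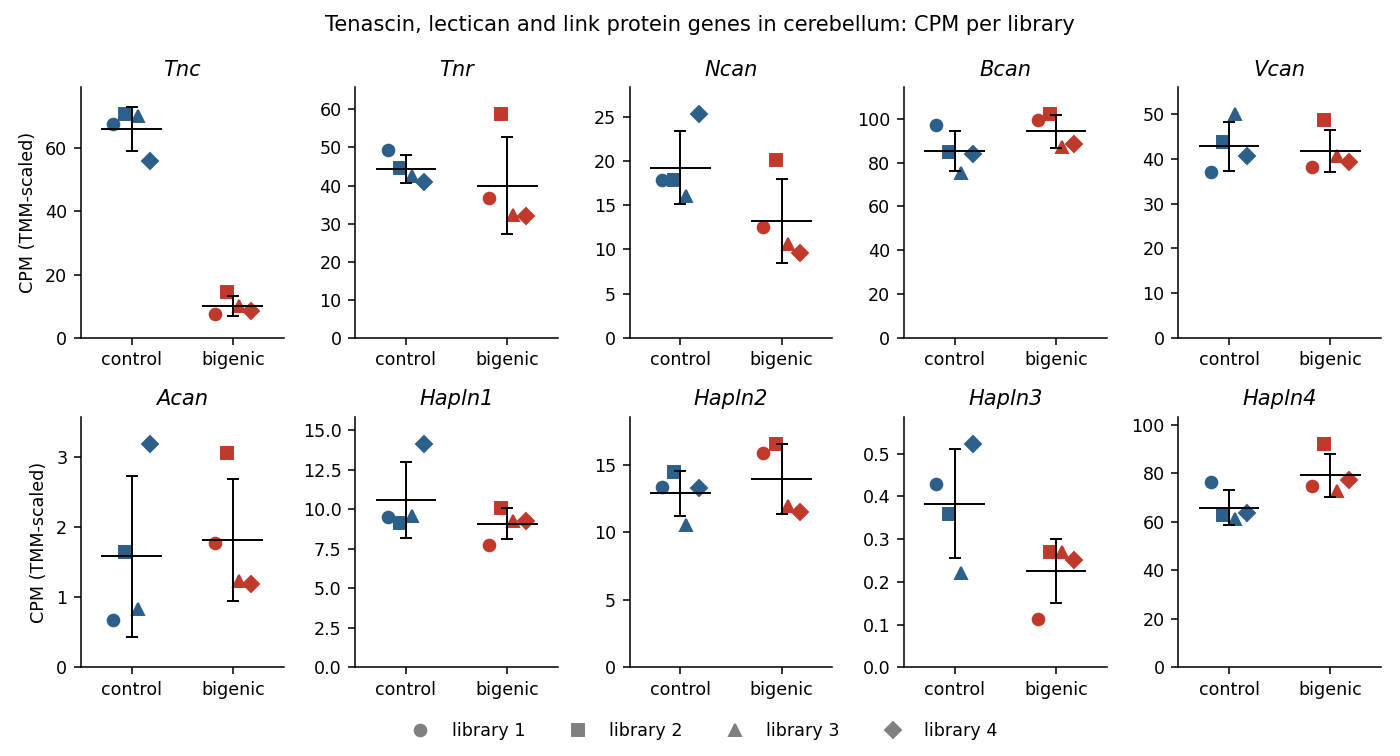
CPM of each of the 10 genes in each library (vertical axis from 0, one panel per gene), with control libraries in blue and bigenic libraries in red; marker shapes give the library number, the horizontal line the group mean and the bar the SD (n = 4). Tnc separates into bigenic values of 7.56 to 14.6 CPM and control values of 55.9 to 70.8 CPM, whereas the groups overlap for the other 9 genes.

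Tnr, the tenascin made mainly by oligodendrocytes and some neurons, did not pass the test. Bigenic libraries 1 to 4 held 36.7, 58.8, 32.3 and 32.1 CPM of it, and controls 1 to 4 held 49.4, 44.5, 42.6 and 40.9 CPM. Bigenic library 2 was the highest of all 8 libraries and the other 3 bigenic libraries were below every control. The log2 fold change of -0.15 ± 0.17 (SE; edgeR adjusted p = 0.51) lay within the spread between replicates, with a 95% confidence interval of -0.53 to 0.23. That interval allows a level from 0.692 to 1.17 times the control. Without bigenic library 2 it was -0.40 ± 0.09 (SE; edgeR adjusted p = 0.0043), and Tnr then passed the threshold.

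The balance between both tenascins is clearest per gene length. FPKM, the deposited fragment count scaled to gene length and library total, allows genes to be compared within a library. The FPKM ratio of Tnc to Tnr was 0.156, 0.189, 0.235 and 0.200 in bigenic libraries 1 to 4 and 1.04, 1.21, 1.25 and 1.04 in control libraries 1 to 4. Tnc was thus slightly above Tnr in every control, and Tnr was 4.26 to 6.40 times Tnc in every bigenic library. Bigenic library 2, high in both tenascins, had a ratio within the range of its group.

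In controls Tnc was the third of the 10 genes by level. Mean FPKM in controls was 23.1 ± 2.56 for Bcan, 19.0 ± 2.07 for Hapln4, 9.58 ± 0.899 for Tnc and 8.46 ± 0.689 for Tnr (SD, n = 4). It was 6.46 ± 0.880 for Hapln2, 3.00 ± 0.356 for Vcan, 2.77 ± 0.634 for Ncan and 2.16 ± 0.517 for Hapln1. Hapln3 and Acan were lowest, at 0.276 ± 0.0949 and 0.223 ± 0.165 FPKM. The values of Bcan and Hapln4 overlapped between libraries, as did those of Tnc and Tnr, of Vcan, Ncan and Hapln1, and of Hapln3 and Acan.

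In bigenic libraries Bcan and Hapln4 were again the highest by mean FPKM, at 24.1 ± 2.11 and 21.5 ± 2.43 (SD, n = 4), and Tnc had rank 8. Its mean of 1.39 ± 0.424 FPKM overlapped Ncan (1.78 ± 0.643) and Hapln1 (1.74 ± 0.177; SD, n = 4). Tnc had rank 3 in each of the 4 controls and rank 7 or 8 in each bigenic library. Bcan ranked first and Hapln4 second in all 8 libraries. FPKM assumes a fixed length per gene, from 1433 bases for Hapln3 to 14689 for Vcan, so splice forms are not resolved.

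**Figure D2:**
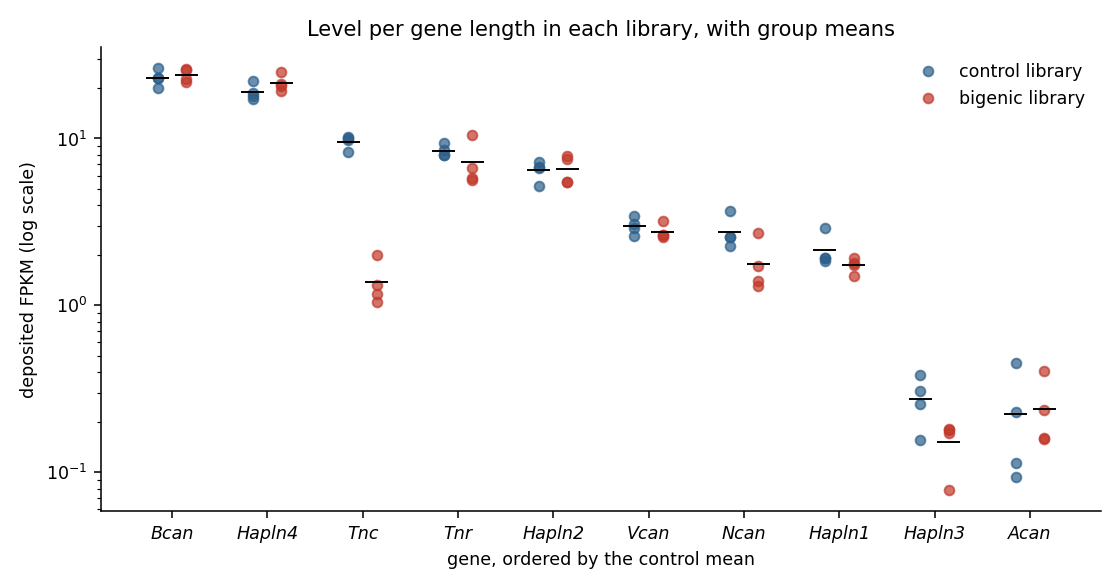
Deposited FPKM (log axis) of the 10 genes, ordered by the control mean, with 1 point per library and a line at each group mean; blue is control and red is bigenic. Tnc drops from a control mean of 9.58 to a bigenic mean of 1.39 FPKM, while Bcan and Hapln4 stay the highest in both groups.

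Among the lecticans, brevican was the most abundant and differed little. Bcan, the short lectican of astrocytes, had 99.6, 102, 87.2 and 88.6 CPM in the bigenic libraries and 97.2, 84.9, 75.1 and 83.8 CPM in the controls, each from 1 to 4. The groups overlapped, and the log2 fold change was 0.15 ± 0.09 (SE; edgeR adjusted p = 0.21), with an interval of -0.05 to 0.34. Per length, Bcan made up 80.4% to 85.1% of the lectican FPKM in bigenic and 76.6% to 83.3% in control libraries.

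Ncan, neurocan, which astrocytes and neurons make mostly during development, had 12.5, 20.0, 10.6 and 9.54 CPM in the bigenic libraries. In the controls it had 17.8, 17.8, 16.0 and 25.3 CPM. Again bigenic library 2 lay among the controls and the other 3 bigenic libraries below all of them, while control library 4 was the highest. The log2 fold change was -0.55 ± 0.22 (SE; edgeR adjusted p = 0.064), past no threshold. It was -0.83 without bigenic library 2 (edgeR adjusted p = 0.0021) and -0.39 without control library 4 (edgeR adjusted p = 0.18), and over all 19 alternatives adjusted p ranged from 0.0021 to 0.18. Ncan passed in 8 of those alternatives, among them DESeq2 (adjusted p = 0.035) and scaling by library size alone (edgeR adjusted p = 0.040).

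Vcan and Acan showed no difference beyond the replicate spread. Vcan, versican, the lectican of oligodendrocyte precursors and vessels, had 38.3, 48.7, 40.8 and 39.4 CPM in bigenic and 37.1, 43.7, 50.1 and 40.7 CPM in control libraries 1 to 4. Its log2 fold change was -0.04 ± 0.11 (SE; edgeR adjusted p = 0.80), with an interval of -0.27 to 0.20. The 15 oligodendrocyte precursor markers summed to between 222 and 254 CPM in bigenic and between 237 and 270 CPM in control libraries. Of these markers, 1 was higher and 4 were lower in bigenic tissue.

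Acan, aggrecan, the lectican that marks perineuronal nets, had 1.77, 3.06, 1.23 and 1.20 CPM in the bigenic libraries, from 62, 113, 41 and 43 reads. In the controls it had 0.671, 1.64, 0.831 and 3.19 CPM, from 25, 64, 30 and 128 reads. The highest values were in bigenic library 2 and control library 4, and the spread within each group was wider than any difference between them. The log2 fold change was 0.19 ± 0.46 (SE; edgeR adjusted p = 0.76), and its interval of -0.83 to 1.21 allows a level between 0.563 and 2.31 times the control. Without control library 4 it was 0.78 (edgeR adjusted p = 0.14) and without bigenic library 2 it was -0.19 (edgeR adjusted p = 0.77), so the value rests on these libraries. It also turned below 0 without control library 1 or 3, at -0.06 and -0.02.

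The link proteins followed no common direction. Hapln4, also called Bral2, the link protein of nets and of inhibitory synapses in the cerebellum, had 74.8, 92.2, 72.9 and 77.1 CPM in the bigenic libraries. In the controls it had 76.3, 62.7, 61.0 and 63.6 CPM, so that control library 1 lay within the bigenic range. Hapln4 had means of 79.2 ± 8.79 and 65.9 ± 7.03 CPM (SD, n = 4) and rose by 0.27 ± 0.10 (SE; edgeR adjusted p = 0.045) on the log2 scale, a 1.20-fold difference. The call did not hold in 15 of 19 alternatives, where adjusted p reached 0.35, and it was lost without bigenic library 1, 2 or 4 and without control library 2, 3 or 4. With library size alone the value was 0.18 (edgeR adjusted p = 0.16).

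Hapln1, the cartilage link protein that neurons of nets also express, was at 7.76, 10.1, 9.28 and 9.23 CPM in bigenic and 9.48, 9.10, 9.53 and 14.1 CPM in control libraries 1 to 4. Control library 4 stood apart, and without it the log2 fold change moved from -0.22 ± 0.15 (SE; edgeR adjusted p = 0.27) to -0.05 (edgeR adjusted p = 0.79). With the Ttr covariate it was -0.60 (edgeR adjusted p = 0.031). Control library 4, at 2.76 CPM, was the only control at the Ttr level of the bigenic libraries (2.25 to 4.62 CPM). That fit therefore leans on the library that stood apart for Hapln1. Hapln2, also called Bral1, the link protein of nodes of Ranvier made by oligodendrocytes, was at 15.9, 16.6, 11.9 and 11.5 CPM in bigenic and 13.3, 14.4, 10.5 and 13.3 CPM in control libraries. Its log2 fold change was 0.11 ± 0.15 (SE; edgeR adjusted p = 0.55), with an interval of -0.20 to 0.43. The 15 oligodendrocyte markers summed to between 4938 and 6529 CPM in bigenic and between 4567 and 5601 CPM in control libraries, with 4 higher and 6 lower.

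Hapln3 was barely detected, with 4, 10, 9 and 9 reads in bigenic and 16, 14, 8 and 21 reads in control libraries 1 to 4. Counts this low did not pass the filter, so no test was made. The group ranges overlapped, and the ratio of mean CPM, bigenic to control, was 0.590. Of the 9 genes tested, 1 was lower (Tnc) and 1 higher (Hapln4) in bigenic tissue, beside 22.9% and 21.4% of all genes. The groups did not overlap for 1 of the 10, Tnc, beside 40.7% of all genes tested.

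**Figure D3:**
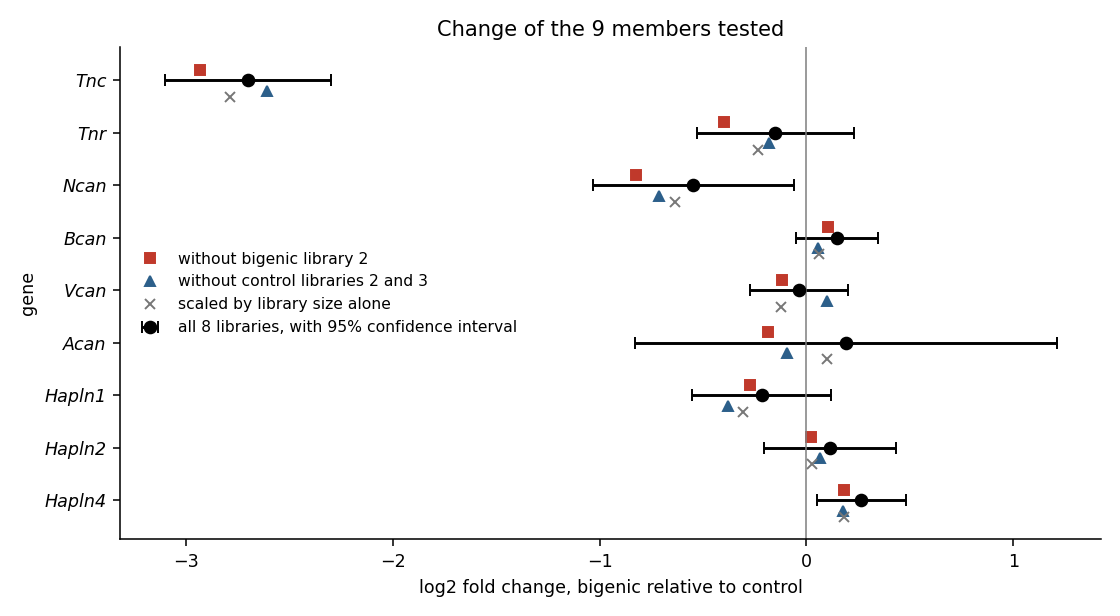
Log2 fold change, bigenic relative to control (horizontal axis), of the 9 genes tested: black points with 95% confidence intervals use all 8 libraries, red squares leave out bigenic library 2, blue triangles leave out control libraries 2 and 3, and grey crosses scale by library size alone. Tnc stays between -2.93 and -2.61 in the fits drawn, Ncan and Tnr move down without bigenic library 2, and Acan has the widest interval (-0.83 to 1.21).

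Several members were high together in single libraries. Bigenic library 2 had the highest CPM of its group for 10 of 10 members, and it was the highest of the 4 for 34.5% of all genes tested. Relative to the median of the group on a log2 scale, it stood at 1.03 for Acan, 0.80 for Ncan, 0.77 for Tnr and 0.67 for Tnc, and at 0.12 for Bcan and 0.28 for Hapln4. Control library 4 was highest of the controls for 4 of 10 members (Ncan, Acan, Hapln1 and Hapln3), beside 25.1% of all genes tested. It was lowest of the controls for Tnc and Tnr.

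Some neuronal markers also stood apart in these libraries, and not in the same way. The 21 markers of cerebellar nuclei and brainstem summed to 203.7 CPM in bigenic library 2, against 143 to 164 CPM in the other bigenic libraries. They summed to 266 CPM in control library 4, against 138 to 168 CPM in the other controls, and Slc17a6 alone made up 110.4 CPM of it. Without Slc17a6 the other 20 markers summed to 156 CPM in control library 4, 128 to 151 CPM in the other controls, 182 CPM in bigenic library 2 and 131 to 148 CPM in the other bigenic libraries. Nefh alone made up most of each sum without Slc17a6, so these sums say little about the other markers. It was at 114 CPM in control library 4, 125 CPM in bigenic library 2 and 88.6 to 102 CPM elsewhere. Slc6a5, a glycine transporter of inhibitory neurons, was lowest of all 8 libraries in control library 4, at 7.12 CPM. Granule and Purkinje neuron marker sums were the lowest of all 8 libraries in control library 4, at 6191 and 13967 CPM, and the highest in bigenic library 2, at 8347 and 17720 CPM. Several Hox genes of the list were at 0 in some libraries, and 7 of the 21 passed the filter on low counts. The glycine receptor gene Glra1 was highest in the same libraries, at 0.866 CPM in bigenic library 2 and 2.04 CPM in control library 4, against 0.0856 to 0.487 CPM elsewhere. The part of any of these neurons in the members' values was not tested. Without bigenic library 2, 3 of the members tested (Tnc, Ncan and Tnr) were lower, beside 24.9% of all genes tested in that fit, and Hapln4 no longer passed (edgeR adjusted p = 0.10). Without both bigenic library 2 and control library 4, a fit chosen after seeing the data, Tnr was at -0.44 and Ncan at -0.67 on the log2 scale.

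**Figure D4:**
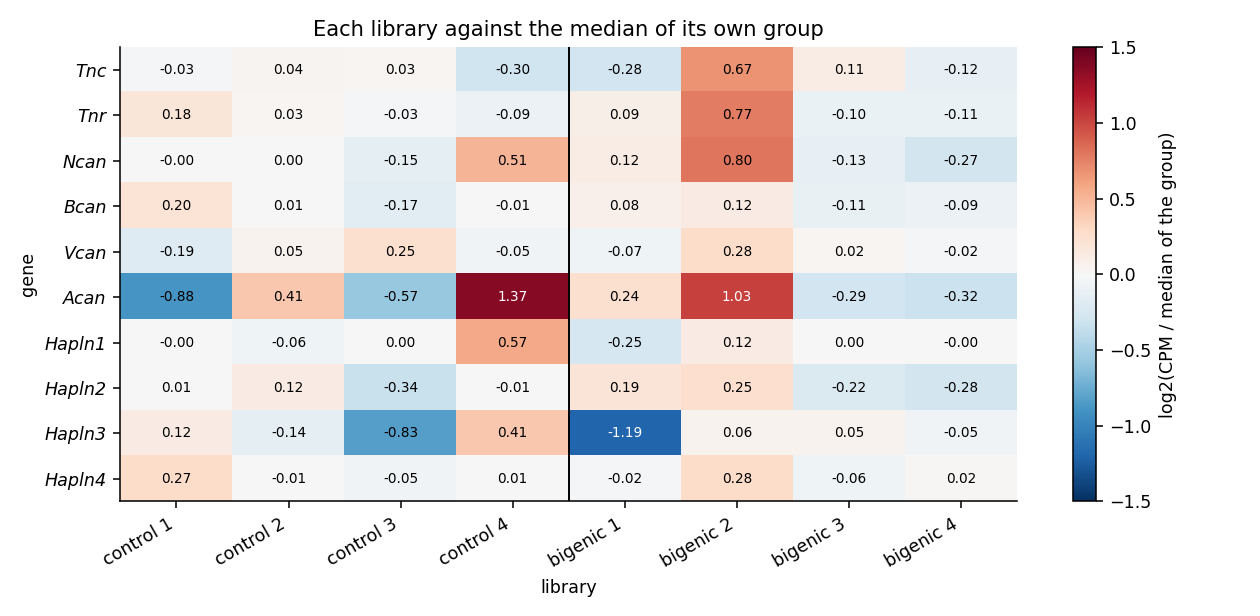
Log2 ratio of each library's CPM to the median of its own group (colour and printed value) for the 10 genes (rows) in the 8 libraries (columns). Bigenic library 2 is above its group median for all 10 genes, up to 1.03 for Acan, and control library 4 stands at 1.37 for Acan, 0.57 for Hapln1 and 0.51 for Ncan.

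The lecticans and link proteins sit in the mouse genome as neighbouring pairs. Hapln4 and Ncan lie 2222 bases apart on chromosome 8, with no protein-coding gene between them and their 3′ ends facing. Acan and Hapln3 on chromosome 7 also have facing 3′ ends, 2 bases apart, as do Vcan and Hapln1 on chromosome 13, 43659 bases apart. Bcan and Hapln2 on chromosome 3 lie in tandem, 21519 bases apart. Exons of the 8 genes overlap those of no other gene in the annotation.

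Levels within the pairs differed to varying extents. The FPKM ratio of Hapln4 to Ncan ranged from 9.21 to 16.2 in bigenic and from 5.04 to 8.59 in control libraries, without overlap between the groups. The gap was narrow, between bigenic library 2 and control library 1. Among single genes the groups did not overlap for 40.7% of all genes tested, and no such share was taken for ratios. Hapln2 relative to Bcan was at 0.240 to 0.300 in bigenic and 0.255 to 0.315 in control libraries, an overlapping range. Hapln1 relative to Vcan was at 0.589 to 0.680 in bigenic and 0.553 to 1.01 in control libraries, the highest value being that of control library 4. Hapln3 relative to Acan, both barely detected, was at 0.331 to 1.13 in bigenic and 0.842 to 3.28 in control libraries, an overlapping range around equal levels. In sum, the 4 link protein genes had 26.8 to 34.9 FPKM in bigenic and 24.5 to 30.9 FPKM in control libraries, and the 4 lecticans 25.9 to 32.3 and 25.8 to 31.5 FPKM. These ratios and sums are a description with no test.

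Genes that bind, build or cut this matrix changed in both directions. In 5 lists of such genes, 109 genes were tested, of which 26 rose and 25 fell (46.8%, beside 44.3% of all genes), with a median log2 fold change of 0.01 beside -0.00 for all genes tested. With the Ttr covariate 13 rose and 9 fell, beside 19.4% of all genes called in that fit. Without control libraries 2 and 3, 18 of 110 rose and 11 fell, beside 21.9% of all genes. With library size alone 20 of 109 rose and 26 fell, beside 44.8% of all genes, with a median of -0.08. The lists were drawn up with earlier results of these data known.

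Among the receptors and partners of tenascins and the other tenascins, 4 of 18 genes rose and 6 fell, and the median log2 fold change was -0.17. Scn2b, the sodium channel subunit that binds tenascin R and tenascin C, was at 226 to 419 CPM in bigenic and 691 to 782 CPM in control libraries and fell by 1.26 ± 0.15 (SE; edgeR adjusted p = 0.00012) on the log2 scale. Itgb3, the integrin chain that with the αv chain binds tenascin C, fell by 0.97 (edgeR adjusted p = 0.0065; 0.078 without control libraries 2 and 3). Sdc4, a cell surface heparan sulfate proteoglycan that acts with fibronectin, rose by 1.34, and Egfr, the receptor that EGF-like repeats of tenascin C can engage, rose by 0.82. Tnn and Tnxb, the remaining tenascins, were at 0.97 and 2.44 CPM in bigenic tissue and at 1.44 and 2.49 CPM in controls and did not pass (edgeR adjusted p = 0.10 and 0.93). They are named as family members after their values were seen. Without control libraries 2 and 3, 1 gene of this list fell, Scn2b at -1.22, and without control library 3 alone 2 genes rose.

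In the hyaluronan list, 4 of 14 genes tested rose, 5 fell, and the median was -0.08. Itih3 and Itih5, heavy chains that attach to hyaluronan, rose by 1.07 and 0.54 on the log2 scale. Tmem2, a cell surface hyaluronidase, rose by 0.42 ± 0.09 (SE; edgeR adjusted p = 0.0032). Stab1, a scavenger receptor of macrophages, fell by 1.21, with bigenic library 2 at 11.0 CPM and the other 3 bigenic libraries at 4.73 to 5.19 CPM. The hyaluronan synthases Has1 and Has3, chosen after their values were seen, fell by 1.24 and 1.29 from 0.606 and 3.01 CPM in controls. Of this list, 3 genes fell without control library 3 and 2 without control libraries 2 and 3.

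Proteases that cut lecticans or tenascins, together with their inhibitors, had 7 of 24 genes higher and 6 lower, with a median of 0.10. Adamts1, a protease that cleaves aggrecan and versican, was at 24.0 to 34.1 CPM in bigenic and 38.2 to 63.9 CPM in control libraries and fell by 0.91 ± 0.15 (SE; edgeR adjusted p = 0.00081; 0.075 with the Ttr covariate). The membrane-type metalloproteinase Mmp15 fell by 0.95. Timp3, an inhibitor of metalloproteinases that include aggrecanases, rose by 0.98 from 114 ± 7.97 to 225 ± 43.2 CPM (SD, n = 4; edgeR adjusted p = 0.00010), and the serine protease Htra1 rose by 0.72. With the Ttr covariate 4 genes of this list rose and 1 fell, and the median was -0.08.

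In the list for chondroitin sulfate chain synthesis, 4 of 28 genes tested rose, 6 fell, and the median was -0.02. Ugdh, which makes the UDP-glucuronate used for the chains, fell by 0.52 ± 0.08 (SE; edgeR adjusted p = 0.00037). Dse, the epimerase that turns chondroitin into dermatan sulfate, fell by 0.85, and Chst7, a 6-O-sulfotransferase, fell by 1.44 from 1.86 ± 0.221 to 0.678 ± 0.260 CPM (SD, n = 4; edgeR adjusted p = 0.0017; 0.051 with the Ttr covariate). Xylt2, which attaches the first sugar to the core protein, rose by 0.63. The number that rose was 2 without control libraries 2 and 3 and 1 with the Ttr covariate.

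In the list of chondroitin sulfate receptors, other proteoglycans and net ligands, 7 of 25 genes tested rose, 2 fell, and the median was 0.09. Omd, a keratan sulfate proteoglycan, and Prg4, lubricin, rose by 1.02 and 0.91 from 5.17 and 1.69 CPM in controls. Rtn4r, the Nogo receptor, rose by 0.54 and Spock1, the proteoglycan testican 1, by 0.37. Both calls were lost without control libraries 2 and 3 (edgeR adjusted p = 0.12 and 0.11). That fit has fewer controls and called 21.9% of all genes, beside 44.3% in the main fit. The 2 lower genes, named after their values were seen, were Otx2, also in the choroid plexus list, and Ptn, a growth factor that binds these chains. The number that rose was 3 without control libraries 2 and 3 and 2 with the Ttr covariate. Neither Otx2 nor Ptn passed without control libraries 2 and 3.

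**Figure D5:**
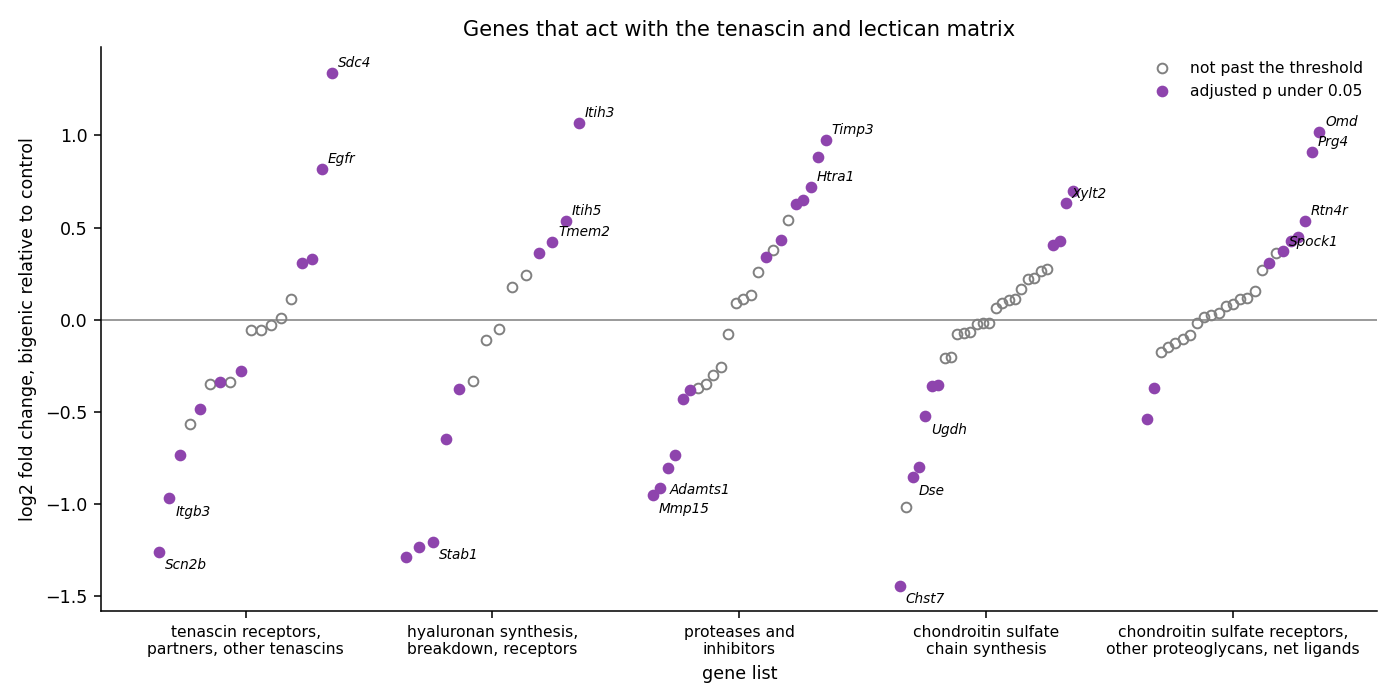
Log2 fold change, bigenic relative to control (vertical axis), of the genes tested in each of 5 lists, sorted within a list, with filled points at an adjusted p under 0.05 and the genes named in the text by p labelled. Each list holds points on both sides of 0, from -1.44 (Chst7) to 1.34 (Sdc4).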

How the data were processed

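The authors deposited read counts per gene symbol, as whole numbers with no normalisation, and FPKM. Per the submitters' processing notes, the tools were STAR and HTSeq, on mm10; their versions are not given here. The deposited FPKM equal count divided by a fixed gene length and the library total (checked in 16362 genes, tolerance 0.1%). They serve mainly to compare genes within a library. Where FPKM are set side by side between groups, and in the FPKM fits, they lack the TMM scaling used for CPM. Per the labels, each library is a separate mouse. The series text and the sample protocols name different extraction kits, library kits and sequencers, so the preparation is uncertain.

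The count test was the robust quasi-likelihood F test of edgeR 4.0.16 in R 4.3.3, after filterByExpr and TMM scaling. Low genes were removed, which left 15186, and the Benjamini-Hochberg adjustment covered all of them. The threshold was 0.05. CPM use TMM-scaled library sizes. Limma 3.58.1 and DESeq2 1.42.0 served as alternatives, beside other scalings and filters, libraries left out, a replicate block and a Ttr covariate. The Ttr covariate stood for choroid plexus transcripts. Ttr nearly follows the group, and among the controls only library 4 was at the bigenic level, so that fit leans on this library. Fits with libraries left out hold fewer mice and have less power, and why a call was lost in them was not tested. The fit was tested on simulated data in which 200 genes were changed, far fewer than were called in the real data. It recovered 54.5% of 1.5-fold and 84% of 2-fold changes, and 5.48% of its calls were false. A gene that was not called can thus still differ by such amounts.

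The members and lists were chosen with earlier results of these data known. Named genes are the 10 members and, from each list, up to 4 with the smallest p past the threshold; exceptions are marked, and single marker genes were named after their values were seen. Gene positions are from GENCODE M21 (GRCm38), start windows from RefSeq.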

Additional observations from a re-analysis of the deposited data

Results flagged for a closer look

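In 60 groups of 4 values, from the 10 members and 20 named matrix genes, 6 held a library that lies far from the other 3 by Dixon's criterion for the gap over the range. Chance flags about 1 group in 20. Hapln1 was at 14.1 CPM in control library 4, Hapln3 at 0.114 CPM in bigenic library 1 (4 reads) and Hapln4 at 76.3 CPM in control library 1. Bigenic library 2 held Stab1 at 11.0 CPM and Spock1 at 132.6 CPM, and bigenic library 4 held Ugdh at 21.6 CPM.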

How the results depend on the processing

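Tnc was lower in all 19 alternatives. The count of members called higher was 1 (Hapln4) and fell to 0 under library-size scaling, upper-quartile scaling, no filter, all 3 FPKM fits, the Ttr covariate, and without control libraries 2 and 3. The count called lower was 1 (Tnc) and rose to 2 under library-size scaling, upper-quartile scaling, DESeq2, log2(FPKM + 1) and log2(FPKM + 0.1), where Ncan joined it. It was 3 with the Ttr covariate (Tnc, Ncan and Hapln1), a fit that called 19.4% of all genes in either direction. Leaving out 1 library in turn gave 0 to 1 higher and 1 to 3 lower. The alternative without bigenic library 2 and control library 4, chosen after seeing the data, gave 0 higher and 3 lower (Tnc, Ncan and Tnr). The share of all genes called lower is not given for that fit. It was 22.9% in the main fit and 24.9% without bigenic library 2 alone. Vcan changed sign to 0.10 without control libraries 2 and 3 and to 0.093 with the Ttr covariate, and lay between -0.12 and 0.04 with single libraries left out, above 0 without bigenic library 1 (0.0036) or control library 3 (0.044). Acan changed sign to -0.10 and -0.61 in those fits, and lay between -0.19 and 0.78 with single libraries left out. The cause of these shifts was not tested. Over all genes, 6734 were called, 3249 higher and 3485 lower; scaled by library size alone the split was 2423 higher to 4373 lower, by upper-quartile factors 2641 to 4105, and the log2(FPKM + 1) fit gave 2370 to 4353. The count was 3394 without control libraries 2 and 3, 2942 with the Ttr covariate and 5281 to 7411 with single libraries left out. With the replicate block 7443 genes were called, and the members called were again Tnc and Hapln4. Same-numbered libraries correlated at 0.329, 0.0239, 0.166 and 0.0625 in their deviations from the group means. Not every library correlated best with the one of its own number. No label says that a shared number marks a shared litter or day, and whether any pair shares one is not known. Depth limits Hapln3 and Acan, with at most 21 and 128 reads per library.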
